A study of Mus musculus with 14 samples.

Results

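The cytosolic ribosomal protein genes, which encode the proteins of the small and large subunits of the ribosome outside mitochondria, were followed in fibro-adipogenic progenitors (FAPs), stromal cells of muscle from which fat and fibrous tissue can form. Members were chosen by symbol alone, as Rpl or Rps followed by a number and at most a letter and a digit, with Rpsa, Rplp0, Rplp1 and Rplp2 added and pseudogenes with a "-ps" symbol left out. This gave 89 members of 56953 genes in the BaCl2 table and 82 members of 14330 genes in the glycerol table, and 82 members stood in both. Primary FAPs had been sorted with magnetic beads (MACS) from the tibialis anterior (TA) muscle 3 days after an injury, and their polyadenylated RNA was sequenced without culture. The groups were FAPs of mice of SMA genotype (spinal muscular atrophy) after BaCl2 (3 libraries), WT mice after BaCl2 (3 libraries), SMA mice after glycerol (4 libraries) and WT mice after glycerol (4 libraries). BaCl2 kills muscle fibres, which then regenerate, and glycerol injury is followed by more fat. All 14 libraries share the sort, the muscle and the time. The labels give no Smn1 allele, transgene, strain, age or sex and do not say whether a library is 1 mouse, so p-values measure the spread between libraries, which may be technical.

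A ribosome holds 1 copy of nearly every ribosomal protein, so cells make these proteins in close to equal numbers, and their mRNAs are among the most abundant in growing cells. Most of these mRNAs begin with a C followed by a run of C and T, the terminal oligopyrimidine (TOP) motif, through which mTORC1 and the RNA-binding protein LARP1 control their translation. Translation is not seen in mRNA levels. Most members have many processed pseudogenes, copies of the mRNA put back into the genome, and short reads from near-identical copies can be counted for the wrong one.

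The annotated starts of 64 members were found in the RefSeq promoter table (GRCm38.p6), and 14 of them (21.9%) began with C and at least 4 further bases that were each C or T, against 813 of 27025 genes (3.01%). The following 30 bases of DNA, 10 before and 20 from the start on, are shown for 5 such members because they display this shared signature; capitals mark the run of C and T that opens the transcript.
Rps18, chr17:33955646-33955675, minus strand: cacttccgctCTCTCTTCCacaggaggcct
Rps6, chr4:86857348-86857377, minus strand: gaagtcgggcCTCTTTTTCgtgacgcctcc
Rps27, chr3:90213629-90213658, minus strand: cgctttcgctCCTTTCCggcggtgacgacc
Rpl28, chr7:4792955-4792984, plus strand: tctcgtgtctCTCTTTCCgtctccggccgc
Rplp2, chr7:141447641-141447670, plus strand: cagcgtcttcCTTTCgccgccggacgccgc
The letters CTTCCG, searched on either strand in the bases from 250 before to 50 after the start, were found in 42 of the 64 members (65.6%) and in 5075 of 27025 genes (18.8%). They can overlap a run of C and T. An annotated start can lie some bases away from the start used in these cells, so the count of runs depends on the annotation.

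Depth after BaCl2 was 97.7 M to 136 M counts a library, where M is mega, and the glycerol values were the authors' normalized counts, whose depth is unknown. Smn1, the gene lost in SMA, was at 12.0, 9.995 and 11.3 counts per M (CPM) in SMA libraries and at 15.8, 17.2 and 15.3 CPM in WT libraries after BaCl2, and was also lower in every SMA library after glycerol. The summed CPM of 12 FAP markers was 57716 to 76556 in SMA and 86065 to 94501 in WT libraries after BaCl2. Of these markers 11 had a log2 fold change below 0, and 5 of 12 passed at adjusted p under 0.05 as lower in SMA. The sum of 12 macrophage markers was 2234 to 3265 in SMA and 1225 to 1691 in WT libraries. All 12 were above 0 and 11 of 12 passed as higher in SMA, where 4.29% of all genes passed in either direction. After glycerol all 12 macrophage markers were above 0 and 5 of 12 passed as higher in SMA. Of 8 endothelial markers 7 were below 0 after glycerol and 3 passed as lower in SMA, where 2.87% of all genes passed in either direction. After BaCl2 7 of the 8 endothelial markers were above 0, with 0 calls. Of the 12 FAP markers 7 were above 0 and 5 below 0 after glycerol, with 0 calls. After BaCl2 2 of 5 Schwann cell markers and 1 of 4 neutrophil markers tested also passed as higher in SMA. Of the markers of muscle stem cells, Pax7 and Myf5 did not pass the low-count filter after BaCl2 and were not used after glycerol. The part of these cells in the values below was not tested, and fewer cells of a type and less RNA per cell cannot be told apart in such libraries.

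After BaCl2 the ribosomal protein mRNAs lay a little lower in SMA than in WT FAPs, by a median log2 fold change of -0.11, and 1 member, Rpl39, passed the test. All 89 members were looked up, 86 passed the filter on low counts, and 84 of these 86 had a log2 fold change below 0, against 50.6% of all 20119 genes tested. The middle 50% of the tested members lay between -0.15 and -0.07, a narrow band beside that of all genes, which ran from -0.16 to 0.17 around a median of -0.0028. In 50 of 86 members the highest SMA library was below the lowest WT library, against 13.1% of all genes, and in 0 members did every SMA library lie above, against 12.2%. All genes include some at low levels, such as Rpl7a-ps9 at a mean of 0.07 CPM. For neither the band nor this order were genes at the level of the members set beside them. The edgeR quasi-likelihood test with Benjamini-Hochberg adjustment over all genes called 1 of 86 members lower and 0 higher, and 85 did not pass, while 4.29% of all genes were called, 1.56% lower and 2.73% higher. An unadjusted p under 0.05 was found in 28 of the 86 members and in 3873 of the 20119 genes. The large subunit (51 members tested, median -0.11) and the small subunit (35 members tested, median -0.12) had similar values. Since members of a library share its scaling, their common direction counts as 1 shift and not as many.

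**Figure D1:**
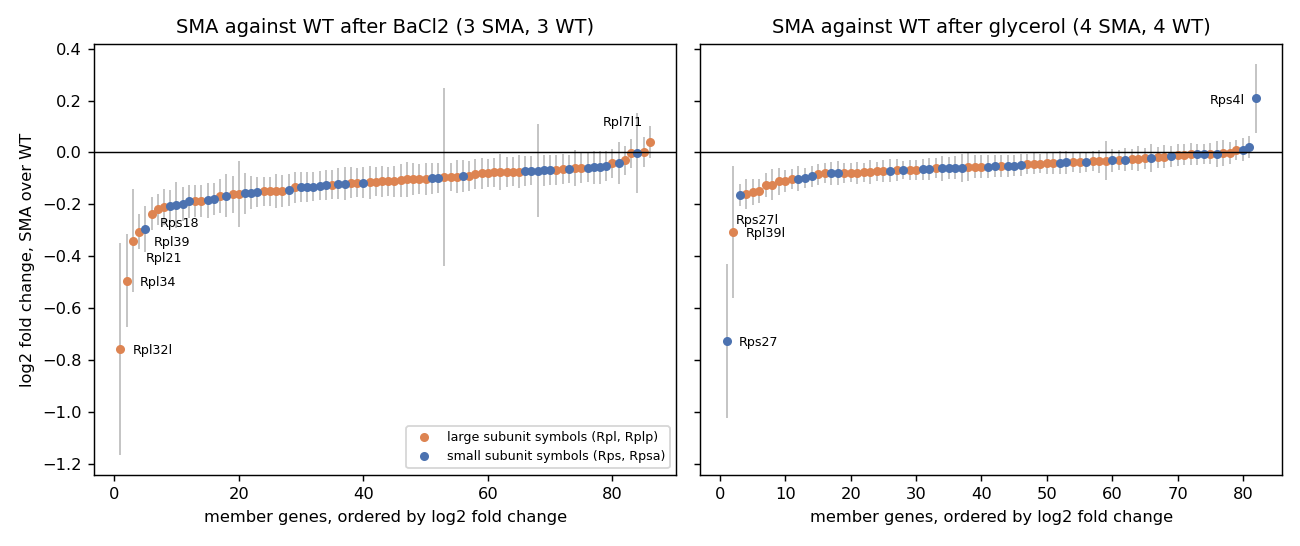
Log2 fold change of SMA over WT for each member tested, in order, after BaCl2 (left, 86 members) and after glycerol (right, 82 members); dots are the fitted values, orange for large and blue for small subunit symbols, and grey bars are standard errors. Nearly all dots lie just below 0 in both panels, 84 of 86 and 78 of 82, with a few members such as Rpl34 and Rps27 far below the rest.

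The WT libraries differed among themselves in the level of the members. The members' median level, as log2(CPM + 1) relative to each gene's WT mean, was -0.10, -0.12 and -0.10 in the 3 SMA libraries and -0.01, 0.07 and -0.07 in the 3 WT libraries. The groups did not overlap, but the gap between them was smaller than the distance from WT library 3 to WT library 2. That second WT library had the highest value of all 6 in 76 of 86 members, where 19.1% of all genes had theirs, and SMA library 2 had the lowest in 48 of 86, where 13.99% of all genes had theirs. The same WT library had the lowest endothelial and macrophage marker levels of the 6, with mean log2 differences from the WT mean of -0.54 and -0.20 over the markers of each list. Without it the members' median moved to -0.08.

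The count of members below 0 and the calls moved with the settings. As a plain share of all counts, the members held 3.996%, 3.86% and 3.90% of the SMA libraries and 4.07%, 4.12% and 3.85% of the WT libraries, and here the groups overlapped. Library totals in place of TMM factors raised the median of all genes to 0.07 and that of the members to -0.04, so the members lay below all genes by about as much as with TMM factors. With library totals 64 of 86 members were below 0 and none was called by edgeR, with Rpl39 at an adjusted p of 0.064. Over all genes library totals gave 744 calls higher and 169 lower in SMA, against 549 and 314 with TMM factors. DESeq2 called 4 of the 85 members to which it gave an adjusted p, Rpl39, Rpl36a, Rpl41 and Rps18, all lower, where it called 11.2% of all 15134 genes with one. EdgeR without the filter on low counts called these together with Rpl34 and Rpl21, 6 of 87 members, where it called 5.67% of all 32954 genes.

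**Figure D2:**
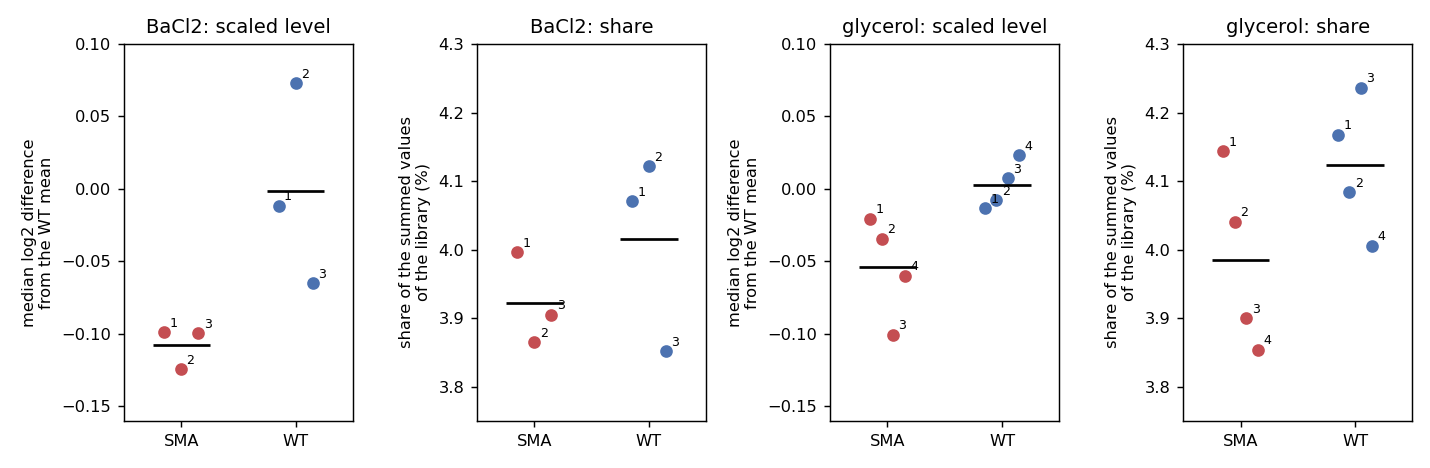
The members in each library after BaCl2 (first 2 panels) and glycerol (last 2), as the median log2 difference from the WT mean and as the percentage of all values of the library; red dots are SMA and blue dots WT libraries, digits are replicate numbers and lines are means. The SMA and WT libraries separate by the scaled level in both injuries and overlap by share, with SMA shares of 3.85% to 4.14% and WT shares of 3.85% to 4.24%.

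Rpl39, a very small protein that lines the tunnel through which the new chain leaves the large subunit, had the smallest p among the members. It was at 166, 172 and 171 CPM in SMA libraries and at 204, 229 and 197 CPM in WT libraries. The SMA libraries were nearly equal to each other and all lay below the lowest WT library. The means were 170 ± 3.14 CPM in SMA and 210 ± 16.8 CPM in WT FAPs (SD, n = 3 each), a log2 fold change of -0.30 (SE 0.07, adjusted p = 0.032 by edgeR). The call was lost when any 1 library other than SMA library 3 was left out, at adjusted p of 0.063 to 0.12.

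Other short members showed a like pattern below the threshold. Rpl41, a very short and mostly basic peptide, was at 591, 584 and 607 CPM in SMA libraries and at 687, 751 and 660 CPM in WT libraries (log2 fold change -0.24, SE 0.06, adjusted p = 0.069 by edgeR). Rpl36a, a large subunit protein encoded on the X chromosome, was at 182, 181 and 183 CPM in SMA libraries and at 212, 224 and 200.1 CPM in WT libraries (log2 fold change -0.22, adjusted p = 0.068 by edgeR). Rps28, a small subunit protein near the mRNA exit, was at 183, 181 and 187 CPM in SMA libraries and at 207, 230 and 200 CPM in WT libraries (log2 fold change -0.21, adjusted p = 0.11 by edgeR). In all of these no SMA library reached the lowest WT library. The 4 X-linked members, Rpl10, Rpl36a, Rpl39 and Rps4x, all had this order after BaCl2, with a median of -0.18. The same order was found there in 50 of 86 members and in 13.1% of all genes. After glycerol 0 of the 4 had it, with a median of -0.03, against 21 of 82 members and 7.54% of all genes.

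Rpl34, Rpl21 and Rps18 had larger fold changes after BaCl2, but these came with unequal SMA libraries. Rpl34, a large subunit protein, was at 123, 196 and 234 CPM in SMA libraries and at 261, 272 and 247 CPM in WT libraries (log2 fold change -0.49, SE 0.18, adjusted p = 0.16 by edgeR). Rps18, a protein of the head of the small subunit, was at 479, 508 and 611 CPM in SMA libraries and at 655, 677 and 629 CPM in WT libraries (log2 fold change -0.30, SE 0.09, adjusted p = 0.094 by edgeR). In both genes SMA library 1 was lowest and SMA library 3 came close to WT. Without SMA library 3 both passed, with log2 fold changes of -0.69 and -0.40. In that fit 675 of 20842 genes were called lower and 902 higher, against 314 and 549 of 20119 with all libraries. Rpl21 was at 89.6, 169 and 172 CPM in SMA libraries and at 176, 198 and 171 CPM in WT libraries, so that SMA library 1 alone stood apart (log2 fold change -0.34, SE 0.20, adjusted p = 0.39 by edgeR).

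Processed copies of Rpl34 and Rps18 were high where the parent was low. Rpl34-ps1, a processed pseudogene on chromosome 6 in GENCODE vM21 (GRCm38), was at 103, 50.8 and 22.5 CPM in SMA libraries and at 26.1, 25.8 and 22.8 CPM in WT libraries. Rps18-ps5 was at 39.1, 24.5 and 6.62 CPM in SMA libraries and at 4.77, 3.85 and 2.50 CPM in WT libraries. Rps18-ps3, a processed pseudogene on chromosome 8, was at 7.55, 6.25 and 0.90 CPM in SMA libraries and at 0.50, 0.68 and 0.51 CPM in WT libraries. The SMA libraries ran in the same order in all 3 copies, opposite to the order in their parents.

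The coding sequence of Rpl34 (chromosome 3) and its copy agree in 352 of 354 bases, so that most short reads cannot separate them. The stretches around both differences are shown because within the coding sequence only reads across them tell the genes apart; positions are counted from the first base of the coding sequence, the substitutions are T132C and C318G, and the capital is the differing base.
Rpl34, coding bases 112 to 152: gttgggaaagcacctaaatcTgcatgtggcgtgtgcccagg
Rpl34-ps1, same bases: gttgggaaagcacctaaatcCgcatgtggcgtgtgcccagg
Rpl34, coding bases 298 to 338: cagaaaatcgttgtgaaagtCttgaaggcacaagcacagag
Rpl34-ps1, same bases: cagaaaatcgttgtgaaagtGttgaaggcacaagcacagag
Rps18 and Rps18-ps3 agree in 99.3% of 456 aligned coding bases, and Rps18-ps5 was not in that annotation. Parent and copy together came to 227, 247 and 256 CPM in SMA libraries and 287, 298 and 270 CPM in WT libraries for Rpl34, and to 526, 539 and 619 CPM in SMA libraries and 661, 681 and 632 CPM in WT libraries for Rps18. The sums kept every SMA library below every WT library, with SMA library 1 lowest, and were less spread than the parents alone. Rpl21-ps15, 99.4% identical to Rpl21, was at 32.0, 55.3 and 59.2 CPM in SMA libraries and at 59.6, 60.1 and 56.0 CPM in WT libraries, and thus went with its parent. Rpl39-ps was at 2.99, 3.28 and 2.71 CPM in SMA libraries and 3.72, 4.003 and 3.04 CPM in WT libraries. Of 322 copies with a "-ps" symbol 123 were tested after BaCl2, and 2 were called higher in SMA and 0 lower. These were Rps18-ps5 and Rps18-ps3 (adjusted p = 0.020 and 0.022 by edgeR). Of all genes 2.73% were called higher and 1.56% lower, so 2 calls in 123 do not exceed these shares. How reads were shared between parent and copy, or what set the SMA libraries apart, was not tested.

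**Figure D3:**
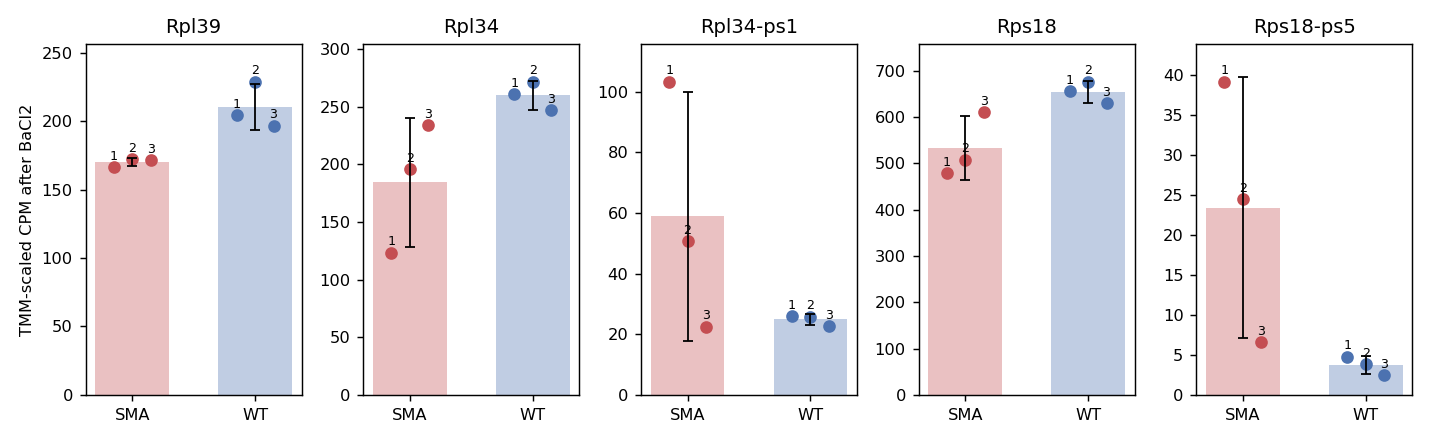
TMM-scaled CPM of Rpl39, of Rpl34 and Rps18 and of their copies Rpl34-ps1 and Rps18-ps5 after BaCl2; red are SMA and blue WT libraries, bars are means, whiskers SD (n = 3) and digits replicate numbers. In Rpl34 and Rps18 SMA library 1 is lowest while in both copies it is highest, and Rpl39 has SMA libraries at 166 to 172 CPM against 197 to 229 CPM in WT libraries.

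Members with known single roles followed the general band after BaCl2. The P-stalk proteins Rplp0, Rplp1 and Rplp2, which recruit the elongation factors, had log2 fold changes of -0.10, -0.12 and -0.13. In all 3 every SMA library was below every WT library, as in 50 of 86 members and 13.1% of all genes. Rplp0, often used as a reference gene, was at 1812, 1844 and 1906 CPM in SMA libraries and at 1919, 2111 and 1946 CPM in WT libraries (adjusted p = 0.41 by edgeR). Rpl5 and Rpl11, which bind Mdm2 when ribosome assembly fails and thereby raise p53, had log2 fold changes of -0.11 and -0.09. Rps19, the gene most often mutated in Diamond-Blackfan anaemia, was at 367, 354 and 353 CPM in SMA libraries and at 396, 417 and 380.2 CPM in WT libraries (log2 fold change -0.15, adjusted p = 0.18 by edgeR). Rpsa, a small subunit protein also known as a laminin receptor, had a log2 fold change of -0.12. Rps6, the S6 kinase substrate, Rps27a, made as a fusion with ubiquitin, and Rpl3, at the catalytic centre, lay nearer to 0 at -0.06, -0.06 and -0.04, and with library totals, where the median of all genes was 0.07, they lay at 0.015, 0.016 and 0.032. None of these passed.

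Rpl4, Rps3a2, Rpl7a and Rpl7l1 had the highest log2 fold changes after BaCl2, at -0.0038, -0.0016, 0.0028 and 0.04. Rpl4, whose loop lines the exit tunnel, was at 1315, 1299 and 1345 CPM in SMA libraries and at 1308, 1372 and 1291 CPM in WT libraries. Rpl7l1, a relative of Rpl7, was at 70.5, 65.2 and 65.0 CPM in SMA libraries and at 62.9, 67.6 and 64.6 CPM in WT libraries. The groups overlapped in both genes.

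The paralogs, which can take the place of a ubiquitous member in some tissues, gave no call. Rpl22l1, the partner gene of Rpl22, was at 54.4, 55.3 and 60.6 CPM in SMA libraries and at 64.6, 69.8 and 62.7 CPM in WT libraries after BaCl2 (log2 fold change -0.21, adjusted p = 0.12 by edgeR), while Rpl22, an RNA-binding protein of the large subunit, had a log2 fold change of -0.12. Rpl39l, known from mouse testis, was at 4.28, 3.80 and 4.07 CPM in SMA libraries and at 4.06, 4.96 and 4.53 CPM in WT libraries. Rps27l, a p53 target, was at 56.5, 47.8 and 46.8 CPM in SMA libraries and at 52.4, 54.3 and 48.7 CPM in WT libraries. The groups overlapped in Rpl39l and Rps27l. Rpl3l, the paralog of heart and skeletal muscle fibres, had 6, 4 and 6 counts in SMA libraries and 13, 0 and 0 counts in WT libraries, and was not tested. Rpl10l, known from testis, and Rps12l1 had 0 counts in all 6 libraries and were not tested either. These 3 and Rpl32l, Rpl6l, Rps3a2 and Rps3a3 were looked up in the BaCl2 table only. Rpl32l had the lowest log2 fold change there, -0.76 (SE 0.41), at a mean of 0.18 ± 0.03 CPM in SMA FAPs and 0.30 ± 0.07 CPM in WT FAPs (SD, n = 3 each), and did not pass (adjusted p = 0.35 by edgeR).

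After glycerol the members again lay slightly lower in SMA FAPs, by a median log2 fold change of -0.05 on the log2(value + 1) scale, and none passed the test. All 82 members were fitted with limma, and 0 were called in either direction at adjusted p under 0.05, where 2.87% of all 14330 genes were called, 1.17% lower and 1.7% higher, while 9 members had an unadjusted p under 0.05, as did 3333 of the 14330 genes. Below 0 lay 78 of 82 members, against 50% of all genes, and in 21 of 82 every SMA library was below every WT library, against 7.54% of all genes. In 0 members did every SMA library lie above, against 6.59%. The members' median level relative to the WT mean was -0.02, -0.03, -0.10 and -0.06 in SMA libraries and -0.01, -0.0078, 0.0073 and 0.02 in WT libraries. SMA library 3 had the lowest value of all 8 in 53 of 82 members, against 13.9% of all genes, and without it the median moved to -0.03. As a share of all values the members held 4.14%, 4.04%, 3.90% and 3.85% in SMA libraries and 4.17%, 4.08%, 4.24% and 4.01% in WT libraries, with overlap.

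Rps27, a small subunit protein with a zinc finger, had the lowest fold change after glycerol and a wide spread in both groups. Its normalized counts were 673, 813, 1477 and 1086 in SMA libraries and 993, 2196, 2055 and 1473 in WT libraries (log2 fold change -0.73, SE 0.30, adjusted p = 0.18 by limma). Rps27rt, a retrogene of Rps27 that the symbol rule leaves out, was at 16886, 17455, 15001 and 17671 normalized counts in SMA libraries and at 16770, 15035, 15237 and 16604 in WT libraries (log2 fold change 0.07, adjusted p = 0.53 by limma). After BaCl2 the order of the pair was the reverse, with Rps27rt at a mean of 22.5 CPM in SMA and 25.7 CPM in WT FAPs and Rps27 at 185 CPM in SMA and 211 CPM in WT FAPs. How reads were shared between Rps27 and Rps27rt was not tested, so the fold change of Rps27 after glycerol is uncertain. The paralog Rps27l, 76.3% identical to Rps27 over the aligned coding bases, was at 3689.7, 3671, 3794 and 3667 in SMA libraries and at 4132, 4043, 4309 and 4107 in WT libraries. The SMA libraries were all below the WT libraries, with a log2 fold change of -0.16 (SE 0.04, adjusted p = 0.069 by limma). Rps27l passed, at adjusted p = 0.044 by limma, when SMA library 3 was left out. In that fit 564 of 14330 genes were called lower and 1081 higher, against 168 and 243 with all libraries.

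Rpl39l was at 187, 260, 148 and 240 normalized counts in SMA libraries and at 323, 233, 323 and 166 in WT libraries, a wide overlap (log2 fold change -0.31, SE 0.25). Rpl22l1 was at 9318, 8243, 8017 and 7836 in SMA libraries and at 9059.5, 9189, 9541 and 9469 in WT libraries (log2 fold change -0.16, adjusted p = 0.15 by limma). SMA library 1 lay among the WT libraries and the other 3 below them. Rpl13a, known in human cells as part of a translational repressor complex, was at 66366, 64022, 58645 and 66112 in SMA libraries and at 71726, 70330.0, 69538 and 71428 in WT libraries (log2 fold change -0.15, adjusted p = 0.12 by limma).

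The highest log2 fold changes after glycerol were those of Rps4l (0.21), Rps14 (0.02), Rps20 (0.01) and Rpl27a (0.0097). Rps4l, a retrogene related to Rps4x, was at 559, 563, 737 and 565 normalized counts in SMA libraries and at 467, 622, 457 and 551 in WT libraries, so SMA library 3 alone lay above all WT libraries. Of the members named for their roles, Rplp0, Rpsa, Rps6, Rps19, Rpl5, Rpl11, Rpl3, Rpl22 and Rps27a had log2 fold changes of -0.03, -0.05, -0.0046, -0.05, -0.06, -0.07, -0.08, -0.07 and -0.08. None of these passed.

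The genotype effect differed between the injuries in 1 member, Rpl39, whose log2 fold change was -0.04 after glycerol and -0.30 after BaCl2, a difference of 0.27 (SE 0.08, adjusted p = 0.010 by z test over all genes fitted in both tables). After glycerol Rpl39 was at 15799.7, 16527, 15955 and 16397 normalized counts in SMA libraries and at 16815, 16274, 16390.1 and 16937 in WT libraries, with overlap. Of 82 members fitted in both, 1 was called, against 10.5% of all 13960 genes, and 10 had an unadjusted p under 0.05, as did 3428 of the 13960 genes. The z test treats standard errors from few libraries as known, which makes its p-values too small, and without WT library 2 of BaCl2 the Rpl39 difference had an adjusted p of 0.057. The members' median difference was 0.06, against 0.01 for all genes, and 16 of 82 members were below 0. Without WT library 2 of BaCl2 the members' median difference was 0.03, against 0.01 for all genes, and 26 of 82 were below 0. Both fold changes were below 0 in 76 of the 82, but their sizes hardly went together across members (Pearson r 0.09, Spearman rho 0.05, n = 82 genes that share the libraries, given as a description).

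The levels of most members were alike in the separately made tables, with some far apart. As parts per M of all values, the WT means of 68 of 82 members were within 2-fold between the tables and 8 were more than 4-fold apart. Rpl24, a large subunit protein at the joint between the subunits, was at 354 per M after glycerol and at 0.75 per M after BaCl2. Rps10 was at 377 per M after glycerol and 2.12 per M after BaCl2, Rpl13a at 966 per M after glycerol and 27.2 per M after BaCl2, and Rpl23a at 603 per M after glycerol and 137 per M after BaCl2. The other way round, Rpl5 was at 33.8 per M after glycerol and 854 per M after BaCl2, Rpl12 at 51.5 per M after glycerol and 727 per M after BaCl2, Rps27 at 22.9 per M after glycerol and 205 per M after BaCl2, and Rps4l at 7.14 per M after glycerol and 43.8 per M after BaCl2.

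Near-identical copies stood beside some of these members. Rps10-ps2, 99.0% identical to Rps10, was at 84.5, 87.1 and 83.8 CPM in SMA libraries and 90.5, 89.6 and 86.7 CPM in WT libraries after BaCl2, while Rps10 itself was at 2.57, 1.89 and 1.78 CPM in SMA libraries and 2.29, 2.08 and 2.16 CPM in WT libraries. Rpl10-ps3, whose coding sequence is 100% identical to that of Rpl10, averaged 39860.3 normalized counts in SMA and 39103 in WT libraries after glycerol, while Rpl10 averaged 14632 in SMA and 14926 in WT libraries, and Rpl10-ps3 averaged 1.48 CPM in SMA FAPs and 1.67 CPM in WT FAPs after BaCl2. Each injury stands in its own table, so the injury, any batch and the way reads were counted cannot be told apart between the tables. The level of such a member in a single table is therefore uncertain.

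**Figure D4:**
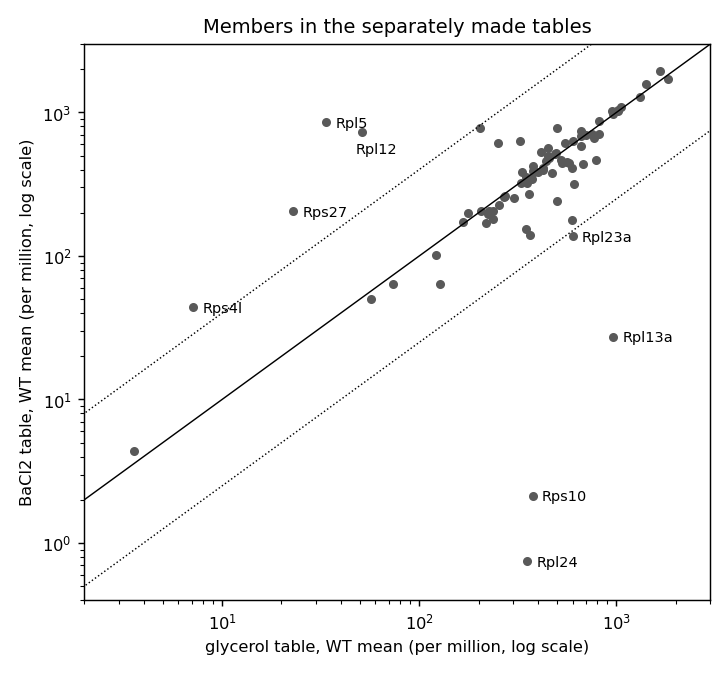
WT mean level of the 82 members per M of all values in the glycerol table (x, log scale) and the BaCl2 table (y, log scale); the solid line marks equality and the dotted lines a 4-fold difference. Of the members, 68 lie within 2-fold of equality, and the 8 that are named lie beyond 4-fold.

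Per length of transcript Rplp1 and Rps2 had the highest levels in both tables. Rplp1 had 1901 per M per kilobase in WT libraries after glycerol and 2037 after BaCl2, and Rps2, a protein of the mRNA entry of the small subunit, had 1827 after glycerol and 1718 after BaCl2. The median over members other than the listed paralogs was 624 after glycerol and 539 after BaCl2 on this scale. At the other end Rpl39l had 5.30 after glycerol and 6.49 after BaCl2, and Rpl3l had 0.026 after BaCl2. Lengths are medians over the basic coding transcripts of GENCODE vM21, and for a few members such as Rps15a they include long rare transcripts.

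Shorter members, and members at lower levels, tended to have lower fold changes after BaCl2. The 36 members under 700 bases had a median log2 fold change of -0.13 and the 50 longer ones of -0.09, and Spearman's rho between length and fold change was 0.34 over the 86 members and 0.06 over all genes with a length. Between mean level and fold change rho was 0.27 over the same 86 members and -0.07 over all genes. After glycerol the medians were -0.06 for 35 shorter and -0.05 for 47 longer members, with a rho of 0.19. These are descriptions across genes, which are not independent replicates. The 14 members with a run of C and T at the annotated start had a median of -0.14 after BaCl2 and the 48 tested members without one of -0.10, and after glycerol the medians were -0.04 over 13 and -0.05 over 48.

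Ribosome biogenesis factors, which build the subunits in the nucleolus, lay mostly below 0 after glycerol and mostly above 0 after BaCl2. After glycerol 31 of 36 were below 0, with a median log2 fold change of -0.13, and 1 fell, Nop56 (5156 normalized counts in SMA and 6576 in WT, log2 fold change -0.35, adjusted p = 0.036 by limma), a core protein of the particles that methylate rRNA. After BaCl2 33 of 36 were above 0, with a median of 0.12, and 1 rose, Heatr1 (53.4 CPM in SMA and 39.8 CPM in WT, log2 fold change 0.42, adjusted p = 0.037 by edgeR), which serves rRNA transcription and processing. Of all genes 2.87% were called after glycerol and 4.29% after BaCl2, so 1 call in 36 is near these shares. The difference between the injuries passed in 14 of the 36, all lower after glycerol, with a median difference of -0.25 and with 10.5% of all genes called. RNA polymerase I, which transcribes rRNA, gave 0 calls among 14 genes in either injury. An unadjusted p under 0.05 was found in 4 of 14 after BaCl2 by edgeR and in 2 of 14 after glycerol by limma. Over all genes it was found in 3873 of 20119 after BaCl2 and in 3333 of 14330 after glycerol. Of the 14 genes 12 were above 0 after BaCl2 and 12 below 0 after glycerol. Polr1a, the largest subunit of RNA polymerase I, was at 52.2 CPM in SMA and 44.3 CPM in WT after BaCl2 (adjusted p = 0.11 by edgeR). Taf1d, of the same list, was lower in SMA in both injuries. Its log2 fold change was -0.19 after BaCl2 (adjusted p = 0.15 by edgeR) and -0.20 after glycerol (adjusted p = 0.070 by limma).

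A list of elongation factors and other genes counted among the TOP mRNAs gave 0 calls among 18 genes in either injury. Whether these 18 genes carry the motif was not checked. An unadjusted p under 0.05 was found in 2 after BaCl2 by edgeR and in 4 after glycerol by limma. Over all genes it was found in 3873 of 20119 after BaCl2 and in 3333 of 14330 after glycerol. The median log2 fold change of the 18 genes was -0.02 after BaCl2 and -0.07 after glycerol. Eef1g, a subunit of the elongation factor eEF1B, was at 60229 normalized counts in SMA and 68138 in WT after glycerol (log2 fold change -0.18, adjusted p = 0.070 by limma). Of 77 mitochondrial ribosomal proteins, a list chosen after values had been seen, 0 were called after BaCl2, with 4 unadjusted p under 0.05 by edgeR and a median of 0.02. After glycerol 1 of 78 fell, Mrpl17 (2343 normalized counts in SMA and 2848 in WT, adjusted p = 0.038 by limma), with a median of -0.04, where 2.87% of all genes were called.

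Among regulators and p53 targets a few genes rose after BaCl2. Of 20 genes of mTORC1, LARP1 and MYC, Rptor, the mTORC1 scaffold, was at 36.6 CPM in SMA and 30.2 CPM in WT (log2 fold change 0.27, adjusted p = 0.035 by edgeR), and Mxd1, an antagonist of MYC, was at 71.8 CPM in SMA and 53.7 CPM in WT (log2 fold change 0.42, adjusted p = 0.031 by edgeR). The list of p53 targets held 15 genes, with the p53 gene Trp53 itself among them. Of these 15 Mdm2, Pmaip1 and Cdkn1a rose after BaCl2, with log2 fold changes of 0.33, 0.41 and 0.36 and adjusted p of 0.027, 0.029 and 0.048 by edgeR. Of all genes 2.73% were called higher. Below 0 were 5 of the 15 genes of the p53 list, among them Btg2 at -0.31 (adjusted p = 0.098 by edgeR) and Trp53 at -0.05. Below 0 were also 7 of the 20 regulators, among them Mxd4 at -0.29 and Myc at -0.30 (adjusted p = 0.069 and 0.17 by edgeR). After glycerol 0 of either list passed, with 4 unadjusted p under 0.05 in each by limma, where 3333 of all 14330 genes had one. There Cdkn1a was at a mean of 16088 normalized counts in SMA and 11933 in WT FAPs (log2 fold change 0.41, adjusted p = 0.083 by limma) and Mxd1 at 5966 in SMA and 4565 in WT FAPs (log2 fold change 0.38, adjusted p = 0.060 by limma). Rptor, Mdm2 and Pmaip1 had log2 fold changes of 0.14, 0.18 and 0.28 after glycerol. None of these 5 genes passed the test of the difference between injuries, with adjusted p of 0.36 to 0.89 by z test. Of the 7 tested hosts of small nucleolar RNAs, which guide rRNA modification from introns of TOP-type genes, 6 were below 0 after BaCl2 with 0 calls and 1 unadjusted p under 0.05 by edgeR, that of Gas5 (93.5 CPM in SMA and 105 CPM in WT). Such a p was found in 3873 of all 20119 genes.

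**Figure D5:**
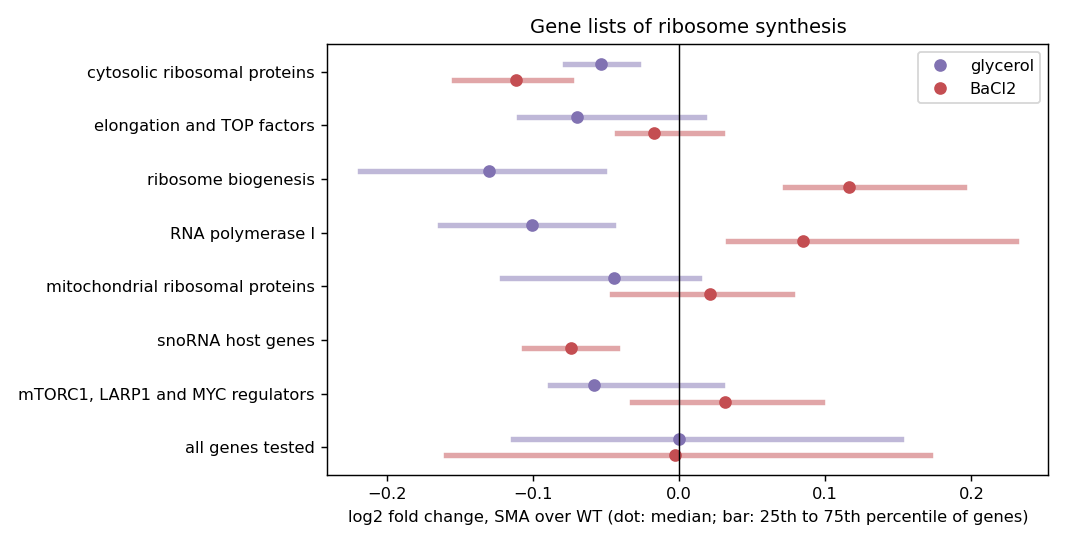
Median (dot) and middle 50% of genes (bar) of the log2 fold change of SMA over WT for the members, for other lists of ribosome synthesis and for all genes, after glycerol (purple) and BaCl2 (red); snoRNA hosts are shown for BaCl2 alone. The members lie below 0 in both injuries, at -0.05 after glycerol and -0.11 after BaCl2, while the biogenesis factors lie at -0.13 after glycerol and 0.12 after BaCl2.

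The authors' deposited table called more members than the fit made here. For BaCl2 the authors' deposited table had 8 of 84 members with an adjusted p under 0.05, all lower in SMA, where 13.8% of all genes in it had one. They were Rpl39, Rpl41, Rpl36a, Rps18, Rps28, Rpl31, Rps20 and Rpl37a, with log2 fold changes in the authors' deposited table from -0.29 to -0.17. For glycerol the authors' deposited table had 2 of 82 members, Rps27l (log2 fold change -0.16) and Rps12 (-0.10), both lower, where 12.5% of all genes had one.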

How the data were processed

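The members and gene lists were chosen with earlier results of these data known. The BaCl2 values are raw counts of reads for each gene, deposited by the authors, and the glycerol values are counts the authors normalized (a linear signal) before they deposited them. The log2 fold changes of the authors, with a p-value and an adjusted p-value each per the file headers, are named where used. Another 6 columns of z-scores in the BaCl2 table were not used. Tools in the submitters' processing notes are DESeq2, featureCounts, Salmon and fastp, with neither version nor role. The genome build and annotation of the tables, and whether counting used strand, were not stated in the labels or file headers. Per the labels' protocols, libraries were made with poly(A) selection and a directional kit.

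With R 4.3.3, BaCl2 counts were scaled with TMM factors, filtered with filterByExpr and tested with edgeR 4.0.16 (quasi-likelihood F test). CPM are TMM-scaled. Glycerol values were tested as log2(value + 1) with limma 3.58.1 with a mean-variance trend. The plan allowed for either unit in this table. The difference between the injuries was a z test on the difference of both log2 fold changes over its standard error. All p-values were adjusted over all genes by the method of Benjamini and Hochberg, with calls at an adjusted p under 0.05, and signs are SMA minus WT and glycerol minus BaCl2. Lists are described by counts and medians without a test. The scripts were tested on simulated data. Alternatives used DESeq2 1.42.0, other scalings, filters, pseudocounts and left-out libraries. Summing members with their named copies, and limma on log2(CPM + 1) for BaCl2, were chosen after seeing the data.

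Members named are those passing, the 4 highest and 4 lowest fold changes per comparison (mean of at least 1 CPM for BaCl2), a short list of members with known roles, and from each other list up to 4 passing genes or else up to 2 by smallest p. Others (Rpl41, Rpl36a, Rps28, Rplp1, Rplp2, Rpl13a, members with large level differences, copies and Rps27rt) were named after their values were seen. Transcript lengths and coding sequences came from GENCODE vM21, promoters from RefSeq GRCm38.p6. Sequences of some members are not shown.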

Additional observations from a re-analysis of the deposited data

Results flagged for a closer look

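The Rpl39 difference of genotype effects, glycerol minus BaCl2, was 0.267 on the log2 scale and passed the test of the difference (adjusted p = 0.010 by z test), with log2 fold changes of -0.04 after glycerol and -0.30 after BaCl2. In Rps4l, SMA library 3 of glycerol lay far from the other SMA libraries, at 737 against 559 to 565 normalized counts, a gap that took up 0.965 of the range of the group, above the critical value of 0.829 for 4 samples. Chance passes that critical value in about 1 in 20 groups, and 36 groups were looked at.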

How the results depend on the processing

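After BaCl2 the count of members called (1) was 0 with library totals, 6 without the filter, 4 with DESeq2, 0 without SMA libraries 1 and 2, which leaves a single SMA library that is assumed to vary like the WT libraries, and 0 to 3 with 1 library left out. The count over all genes (863) was 1867, 1700, 108 and 41 to 1577 in the settings without the filter, with DESeq2, without both SMA libraries and with 1 library left out. The members' median (-0.11) was -0.0376 with library totals, which raised the median of all genes to 0.0702 from -0.0028. Library totals called 744 genes higher and 169 lower in SMA, against 549 and 314 in the main fit. After glycerol members called (0) ranged from 0 to 1 with 1 library left out, and the count over all genes (411) was 2 without the mean-variance trend, 257 with a replicate block and 0 to 1645 with 1 library left out. In the difference between injuries members called (1) were 3 with the replicate block and 0 to 3 with 1 library left out. Over all genes 772 differences were called above 0 and 698 below 0 in the main fit, and 1050 and 890 with the replicate block. With 1 library left out 506 to 1045 were called above 0 and 483 to 937 below 0. The causes of the other moves were not tested.

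Deviations from the group means of same-numbered libraries correlated at 0.057, -0.13 and 0.087 after BaCl2. After glycerol these correlations were 0.14, -0.089, -0.0088 and 0.040. With so few libraries such values cannot decide whether replicate numbers pair the samples. The replicate block left 1 member called after BaCl2 and 0 after glycerol. Over all genes it called 664 higher and 480 lower after BaCl2, against 549 and 314 in the main fit. After glycerol it called 184 higher and 73 lower, against 243 and 168.

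Members near 0 changed sign. Rpl4 was at 0.0018 with RLE factors, 0.0698 with library totals, 0.0017 without the filter, 0.0011 with DESeq2 and 0.0222 without SMA libraries 1 and 2, and -0.0228 to 0.0211 with 1 library left out. Rps3a2 was at 0.0042, 0.07, 0.0039, 0.0034 and 0.0117 in the same settings, 0.0098 with the replicate block, 0.0055 with limma, and -0.1194 to 0.1017 with 1 library left out. With library totals, which raised all genes together, Rps6 was at 0.0147, Rps27a at 0.0164, Rpl3 at 0.032 and Rps27l at 0.0351. Without SMA libraries 1 and 2 Rpl7l1 was at -0.0013. After glycerol Rps6 was at 0.0023 with TMM factors. With 1 library left out, Rps27l ranged from -0.1259 to 0.0173 and Rpl7a from -0.0324 to 0.0335 after BaCl2, and Rps20 from -0.0077 to 0.0384, Rps14 from -0.0003 to 0.0341, Rpl27a from -0.0071 to 0.0325 and Rps6 from -0.0283 to 0.0229 after glycerol. Shares of the library kept their direction in both alternatives run. Depth limits Rpl32l and Rpl3l after BaCl2, which have few counts.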
